A study of Mus musculus with 27 samples.

Results

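The 10 genes studied here belong to the thioredoxin, peroxiredoxin and glutathione peroxidase systems (Txn1, Txnrd1, Srxn1, Prdx1, Prdx2, Prdx6, Gpx1, Gpx2, Gpx3 and Gpx4), and they were followed across the developing mouse esophagus and across loss of Nrf2, of Keap1 and of both. Members were chosen by name: 17 of the 41174 probes on the array carried one of these 10 gene names, out of 28146 gene names in all, and all 10 were measured well enough to be tested in every comparison. There were 27 arrays in 9 groups of 3. Whole esophagus of wild-type C57BL/6J mice was taken at embryonic days 11.5 and 15.5 (E11.5, E15.5) and at postnatal days 0 and 7 (P0, P7). Whole esophagus of Nrf2-/-, Keap1-/- and Nrf2-/-Keap1-/- mice, all on the C57BL/6J background, was taken at P7. Esophageal epithelium, rather than whole esophagus, was taken from wild-type and Nrf2-/- adults of 8 weeks. Age and tissue therefore cannot be told apart between P7 and adult, and in whole tissue fewer cells of a type and less RNA per cell cannot be told apart either. Both null alleles were carried by the whole animal, and Keap1-/- mice were sampled at P7 only.

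The thioredoxin system keeps protein thiols reduced. Thioredoxin (Txn1) hands electrons from NADPH, passed on by thioredoxin reductase (Txnrd1), to peroxiredoxins (Prdx1 and Prdx2), which break down hydrogen peroxide, and sulfiredoxin (Srxn1) restores peroxiredoxins that have been over-oxidised. Prdx6 and the glutathione peroxidases (Gpx1, Gpx2, Gpx3 and Gpx4) draw instead on glutathione. Nrf2, encoded by Nfe2l2, is a transcription factor that binds antioxidant response elements together with small Maf proteins, and Keap1 is the adaptor that sends Nrf2 for degradation. Stratified squamous epithelium of the esophagus is a tissue in which Nrf2 is known to drive detoxifying enzymes.

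Srxn1, Txnrd1, Prdx1 and Txn1 were all far higher in the Keap1-/- esophagus. Of these, Srxn1, Txnrd1 and Prdx1 held a match to the core of the antioxidant response element, TGACNNNGC, close to an annotated transcript start. Txn1 held none. The stretches with a match are shown as a description, and their part in the rise was not tested. RefSeq windows (GRCm38.p6) of 250 bases before and 50 bases after a start were searched on both strands: 14 windows belonged to 9 of the 10 members, and Prdx6 was not searched. The core was found in 3 of these 14 windows and in 12.4% of all 32851 windows, so a match to the core is common in windows of this length. The longer form TGACTCAGC, every match of which also matches the core, was found in the Prdx1 window and in 0.454% of all windows. Capitals mark the match, which in each case reads as the reverse complement of the motif; all 3 genes lie on the plus strand.
Prdx1, chr4:116685406-116685534, match 133 bases before the start: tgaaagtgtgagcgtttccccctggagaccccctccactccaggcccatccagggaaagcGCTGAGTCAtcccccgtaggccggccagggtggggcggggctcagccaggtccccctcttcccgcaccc
Txnrd1, one of its 3 windows, chr10:82859054-82859182, match 92 bases before the start: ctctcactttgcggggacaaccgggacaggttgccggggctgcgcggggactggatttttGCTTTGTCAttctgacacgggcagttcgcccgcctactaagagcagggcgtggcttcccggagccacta
Srxn1, chr2:152105542-152105570, match 28 bases after the start: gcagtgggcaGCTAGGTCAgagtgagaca
The windows of Txn1, Prdx2, Gpx1, Gpx2, Gpx3 and Gpx4 held no match, which says nothing of sequence outside these windows. No binding was measured in these samples.

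Each value below is a log2 ratio of the sample (labelled with Cy5) to the same universal mouse reference RNA (labelled with Cy3) on every array, averaged over the probes of a gene. A ratio ranks the groups for one gene and not one gene against another. Between 58.9% and 69.3% of Cy5 spots on an array were well above background. The median Cy3 intensity was 115 to 147 on the Keap1-/- arrays and 223 to 386 on the other arrays. The Keap1-/- arrays had a slide of their own and were scanned apart from the other P7 arrays. Slide, scan and genotype therefore cannot be told apart there. The wild-type P7 arrays shared a slide with no other group, so slide cannot be told apart from genotype in any comparison with them. Array E11.5 replicate 3 correlated at 0.970 to 0.975 with replicates 2 and 3 of E15.5 and at 0.770 to 0.828 with its own group, while E15.5 replicate 1 correlated at 0.918 to 0.952 with replicates 1 and 2 of E11.5 and at 0.802 to 0.811 with its own group. Both arrays kept their labels, and calls that rest on them are given with and without them. Nfe2l2 stood between -0.55 and 0.00 in wild-type P7 esophagus and between -4.14 and -3.82 on all 6 Nrf2-/- and Nrf2-/-Keap1-/- P7 arrays. Keap1 was at 0.20 ± 0.45 (SD, n = 3) in Keap1-/- and 0.65 ± 0.30 in wild-type, a difference that did not pass the test (limma adjusted p = 0.145), and where its probe lies relative to the deleted part is not known here. Nqo1, a classical Nrf2 target, was at 3.95 to 4.18 on the Keap1-/- arrays and at -1.96 to 0.45 on the wild-type P7 arrays.

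**Figure D1:**
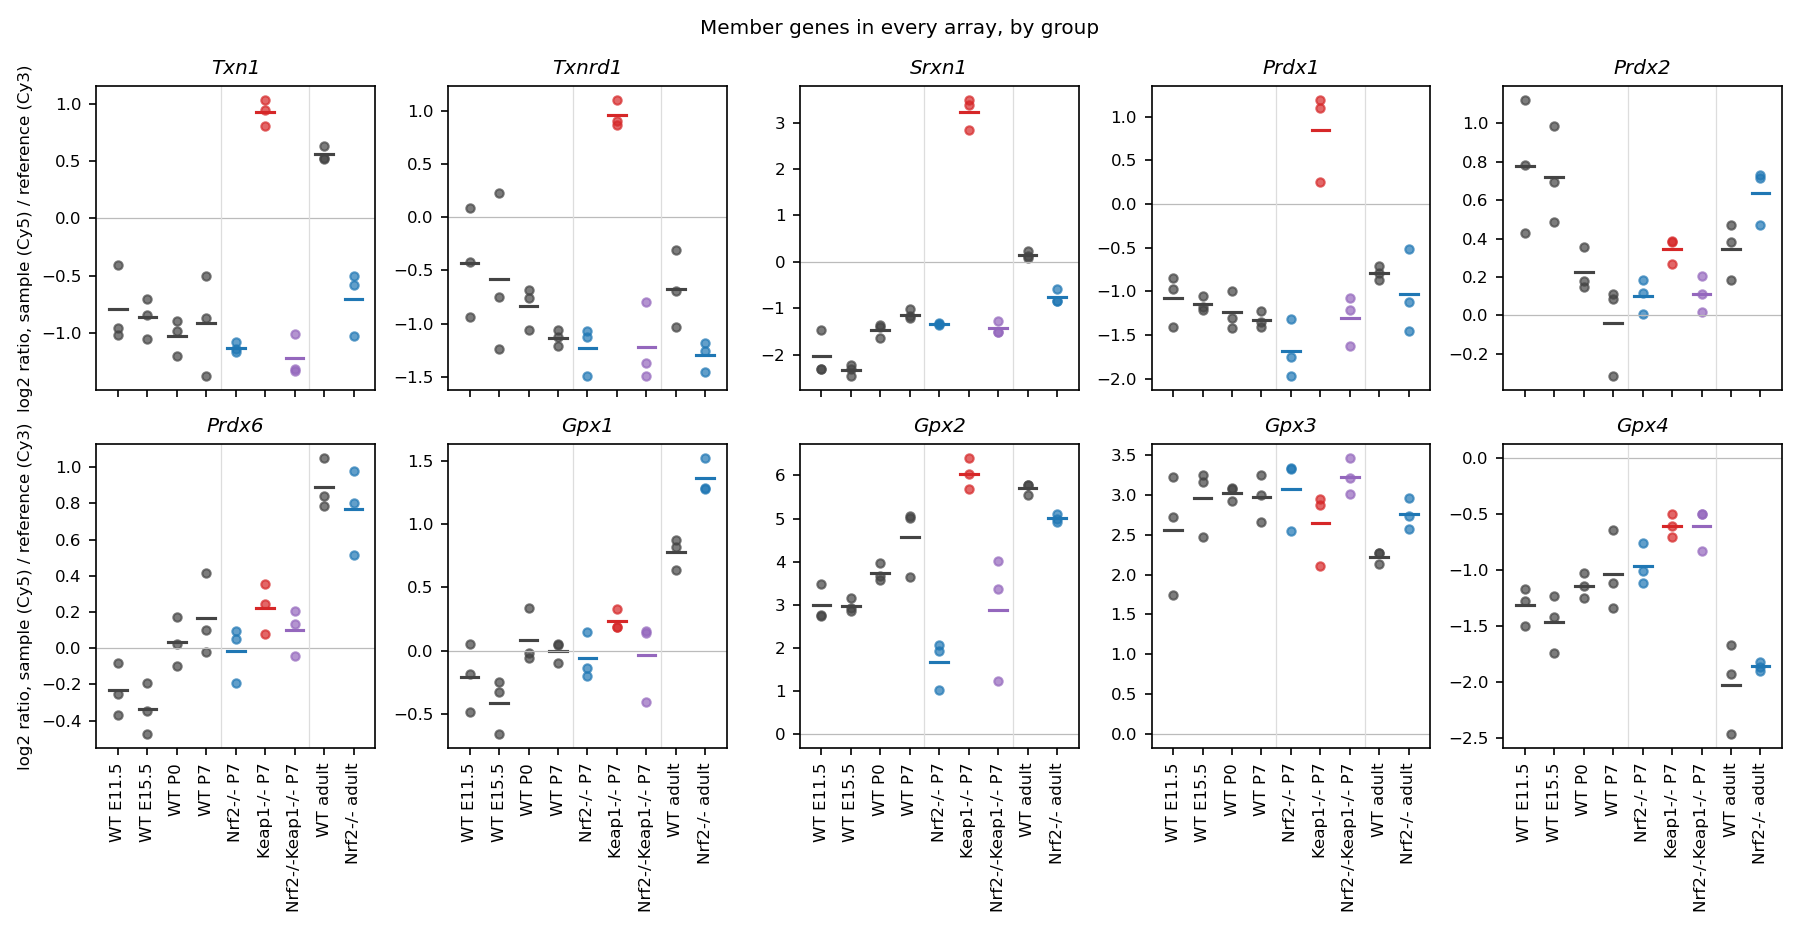
Log2 ratio of sample (Cy5) to reference RNA (Cy3) for each member gene, 1 panel a gene, with 1 point an array and a bar at the mean of the 3 arrays of each of the 9 groups. Srxn1 spans the widest range of group means, from -2.33 at E15.5 to 3.23 in Keap1-/- esophagus, and Prdx2 the narrowest, from -0.04 to 0.78.

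The first question was what loss of Keap1 did to these genes at P7. Txn1, Txnrd1, Srxn1 and Prdx1 were all far higher in Keap1-/- esophagus than in wild-type, by 3.60-fold to 20.7-fold, while Prdx6, Gpx1, Gpx3 and Gpx4 did not pass the test. In all, 5 of 10 members were higher and none lower at an adjusted p of 0.05 or less (limma, Benjamini-Hochberg over 19064 genes), where 15.4% of all genes tested were called higher. The median log2 change was 0.95 over the 10 members and -0.02 over all genes.

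Srxn1, the sulfiredoxin that repairs over-oxidised peroxiredoxins, moved most. Its log2 ratio was 2.83, 3.37 and 3.49 on the 3 Keap1-/- arrays, against -1.18, -1.03 and -1.22 on the wild-type P7 arrays. The difference was 4.37 ± 0.15 on the log2 scale (SE), or 20.7-fold, with an adjusted p of 1.7e-08 in limma. The order of the 9 groups for Srxn1 ran from E15.5 (-2.33 ± 0.12) and E11.5 (-2.03 ± 0.49) through P0 (-1.47 ± 0.15), Nrf2-/-Keap1-/- (-1.44 ± 0.14), Nrf2-/- P7 (-1.34 ± 0.01) and wild-type P7 (-1.14 ± 0.10) to Nrf2-/- adult (-0.76 ± 0.14), wild-type adult (0.14 ± 0.07) and Keap1-/- (3.23 ± 0.35; SD, n = 3 each). Each neighbouring pair from E15.5 to Nrf2-/- P7 overlapped, while wild-type P7 and the 3 groups above it each stood clear of their neighbours.

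Txn1, thioredoxin itself, was at 0.94, 0.81 and 1.03 in Keap1-/- esophagus and at -0.87, -0.51 and -1.38 in wild-type. It was 3.60-fold higher (log2 1.85 ± 0.18, limma adjusted p = 4.66e-05), with no overlap between the groups. Txnrd1, the reductase that recharges thioredoxin, was at 0.91, 1.1 and 0.87 against -1.21, -1.06 and -1.12. That is 4.27-fold higher (log2 2.09 ± 0.17, limma adjusted p = 1.33e-05), and its Keap1-/- mean, 0.96, was the highest of its 9 group means.

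The 3 peroxiredoxins differed in their response. Prdx1, the abundant cytosolic peroxiredoxin, was at 0.25, 1.1 and 1.19 in Keap1-/- and at -1.41, -1.35 and -1.23 in wild-type. It was 4.52-fold higher (log2 2.18 ± 0.25, limma adjusted p = 0.00012), although Keap1-/- replicate 1 stood well below the other two. Prdx2, its close cytosolic relative, was at 0.38, 0.39 and 0.27 against 0.09, -0.32 and 0.11, a small difference of 0.39 ± 0.12 that passed the test (limma adjusted p = 0.0299) and lost the call without any 1 Keap1-/- array (adjusted p = 0.0519 to 0.0882) or without wild-type replicate 2 (log2 0.25, adjusted p = 0.0745). In the Cy5 channel alone the difference of Prdx2 was -0.02 (adjusted p = 0.926). Prdx6, which reduces phospholipid peroxides, was at 0.08, 0.24 and 0.35 in Keap1-/- and at -0.02, 0.42 and 0.10 in wild-type, groups that overlapped.

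Of the glutathione peroxidases, Gpx1, Gpx3 and Gpx4 did not pass the test. Gpx1, the widespread cytosolic enzyme, was at 0.19, 0.19 and 0.33 in Keap1-/- and at 0.05, 0.05 and -0.10 in wild-type, a difference of 0.24 (limma adjusted p = 0.259) that was -0.49 in the Cy5 channel alone (adjusted p = 0.0106). Gpx4, which protects membrane lipids, was at -0.50, -0.70 and -0.61 against -0.64, -1.34 and -1.12 (log2 difference 0.43, adjusted p = 0.0793). Gpx4 passed without wild-type replicate 1 (log2 0.63, adjusted p = 0.0123), with slide as a block (adjusted p = 0.0389) and with replicate number as a block (adjusted p = 0.0406). Wild-type and Keap1-/- P7 arrays lay on separate slides, so the slide block cannot separate slide from genotype. It was fitted as a random effect, with a correlation within slides of -0.098. Median scaling gave both Gpx4 (log2 1.01, adjusted p = 0.00367) and Gpx1 (log2 0.84, adjusted p = 0.00329) a call. Gpx3, a secreted enzyme of plasma, was at 2.95, 2.11 and 2.87 against 2.99, 2.66 and 3.24 (log2 difference -0.32, adjusted p = 0.394). The Gpx1 groups did not overlap, and those of Gpx3 and Gpx4 did.

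Gpx2, the glutathione peroxidase typical of the gut epithelium, needs both channels to be read. Its ratio was 6.40, 5.68 and 6.03 in Keap1-/- esophagus and 5.02, 5.06 and 3.65 in wild-type, a difference of 1.46 ± 0.63 that did not pass the test (limma adjusted p = 0.1), but did so without Nrf2-/-Keap1-/- replicate 1 (adjusted p = 0.0222) or with all 27 arrays in the fit (adjusted p = 0.0266). Behind that ratio the Cy5 intensity was 186566 to 200011 on the Keap1-/- arrays and 1267 to 4194 on the wild-type P7 arrays. The Cy3 intensity, which comes from the same reference RNA on every array, was 5433 to 7121 on the Keap1-/- arrays and 296 to 505 on the wild-type P7 arrays. After quantile normalization the Keap1-/- minus wild-type difference of Gpx2 was 5.50 in Cy5 and 4.47 in Cy3. Of 19064 genes, 1 had a larger Cy3 difference than Gpx2, and 97.6% had one within 1 log2 unit in either direction; no member spot was saturated. The other members moved in Cy3 by -0.70 (Gpx1) to 0.34 (Txn1). What moved the Gpx2 reference signal was not tested. In the Cy5 channel alone, the 5.50 difference of Gpx2 passed the test (limma adjusted p = 0.000644).

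**Figure D2:**
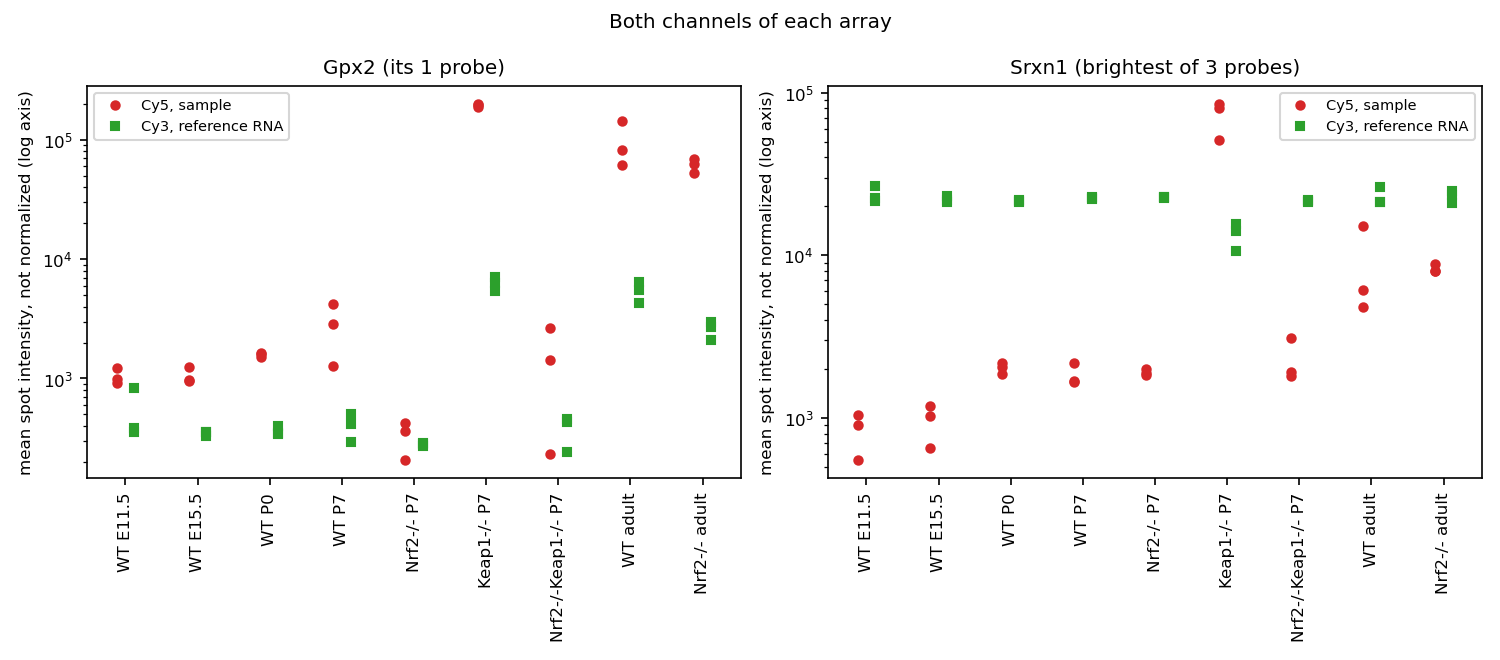
Mean spot intensity, not normalized, on a log axis for the Gpx2 probe (left) and the brightest Srxn1 probe (right), with Cy5 (sample) as circles and Cy3 (reference RNA) as squares, 1 point an array in each of the 9 groups. The Cy3 intensity of Gpx2 lies at 243 to 829 in embryo, P0, and wild-type, Nrf2-/- and Nrf2-/-Keap1-/- P7 esophagus and at 2080 to 7121 in the Keap1-/- and adult groups, while that of Srxn1 spans 10601 to 26639 over all 27 arrays.

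The next question was whether these differences were seen when Nrf2 was missing too. None of the 10 members differed between Nrf2-/-Keap1-/- and wild-type esophagus in limma, where 0.430% of all genes were called; 2 members had an unadjusted p under 0.05 and SAM called 0. Srxn1 stood at -1.27, -1.52 and -1.52 in Nrf2-/-Keap1-/- esophagus, Txn1 at -1.32, -1.01 and -1.33, Txnrd1 at -0.80, -1.37 and -1.49, and Prdx1 at -1.22, -1.08 and -1.63. None of these 12 values reached the lowest Keap1-/- value of the same gene. Gpx4 had a mean of -0.61 in Nrf2-/-Keap1-/-, near its -0.60 in Keap1-/-, against -1.03 in wild-type esophagus. Gpx2 had a mean ratio of 2.87 in Nrf2-/-Keap1-/- and 4.58 in wild-type esophagus. Neither gene passed the test against wild-type.

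Keap1-/- against Nrf2-/-Keap1-/- esophagus gave 5 of 10 members higher and none lower, where 15.1% of all genes were called higher. These were Srxn1 (25.4-fold, limma adjusted p = 1.09e-08), Txnrd1 (4.53-fold, 1.03e-05), Prdx1 (4.46-fold, 0.000133), Txn1 (4.44-fold, 1.66e-05) and Gpx2 (8.99-fold, 0.00347). Gpx2 was uneven in the double mutant, at 1.24, 4.01 and 3.36, and all 3 values lay under the Keap1-/- values. Its reference signal differed here too, with Cy3 at 5433 to 7121 in Keap1-/- and 243 to 454 in Nrf2-/-Keap1-/-, and in the Cy5 channel alone the log2 difference was 7.42 (adjusted p = 0.00012) against 3.17 by the ratio. The 2 comparisons share the Keap1-/- arrays. Within the double mutant, replicate 1 shared a slide with the Nrf2-/- P7 arrays, and replicates 2 and 3 shared one with wild-type adult arrays. On the slide of replicate 1, Gpx2 was -0.45 from the mean of the Nrf2-/- arrays on the log2 scale. The part of slide in the uneven Gpx2 values was not tested.

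The Keap1 effect itself was then compared between mice with and without Nrf2, as the interaction of both genotypes. It was larger with Nrf2 for 4 of 10 members, where 7.16% of all genes were called in that direction. The difference of the 2 effects was 4.46 ± 0.22 for Srxn1, 2.08 ± 0.25 for Txnrd1, 1.94 ± 0.26 for Txn1 and 1.81 ± 0.35 for Prdx1 (log2, SE), with limma adjusted p values of 6.52e-07, 0.00038, 0.000907 and 0.00726. For Gpx2 it was 0.27 ± 0.89 by the ratio (adjusted p = 0.873) and 4.13 in the Cy5 channel alone (adjusted p = 0.0397). Without Nrf2, loss of Keap1 gave 0 members called in limma, with 0 of all 19064 genes called (0%), 0 members at an unadjusted p under 0.05 and 0 by SAM. For Srxn1 that effect was -0.09 ± 0.15, for Txn1 -0.09 ± 0.18 and for Txnrd1 0.01 ± 0.17.

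**Figure D3:**
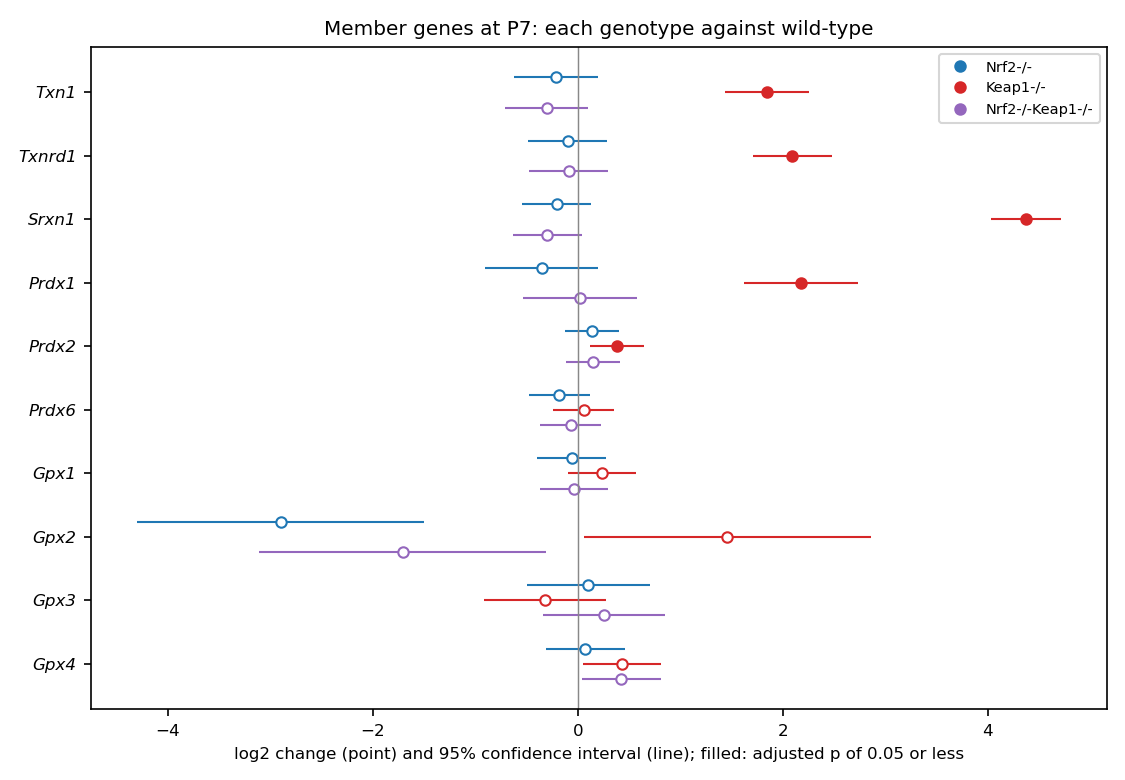
Log2 change (points) with its 95% confidence interval (lines) for each member in Nrf2-/-, Keap1-/- and Nrf2-/-Keap1-/- esophagus against wild-type at P7, filled where the limma adjusted p was 0.05 or less. Txn1, Txnrd1, Srxn1 and Prdx1 lie at 1.85 to 4.37 in Keap1-/- alone, and Gpx2 has the widest intervals.

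Loss of Nrf2 alone at P7 left 0 of 10 members called in limma, where 0.0157% of all genes were called; 1 member had an unadjusted p under 0.05 and SAM called 1. That member was Gpx2, at 2.08, 1.93 and 1.04 in Nrf2-/- esophagus against 5.02, 5.06 and 3.65 in wild-type, with no overlap and a difference of -2.90 ± 0.63 (limma adjusted p = 0.3). Pooling the spread over all 27 arrays gave the same difference an adjusted p of 0.0234. Srxn1 was at -1.36, -1.33 and -1.35, just under its wild-type values, a difference of -0.21 (adjusted p = 0.645). Prdx1 was at -1.97, -1.75 and -1.31, and the other members differed from wild-type by -0.21 to 0.14.

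Several other cell types and cell states moved with the Keap1-/- genotype, and their part in the results was not tested. Against wild-type P7 esophagus, 5 of 8 fibroblast markers, 5 of 8 smooth muscle markers, 6 of 9 macrophage markers and 7 of 9 proliferation markers were lower. Meanwhile 1 smooth muscle marker, 1 macrophage marker and 3 of 12 skeletal muscle markers were higher. Of all genes, 17.9% were called lower and 15.4% higher. The mean of the fibroblast list was 0.28 to 0.82 on the Keap1-/- arrays, 1.33 to 1.68 on the wild-type P7 arrays and 1.41 to 1.73 on the Nrf2-/-Keap1-/- arrays. Of 13 squamous epithelium markers, 2 were higher and 2 lower, and their mean was 3.65 to 3.88 in Keap1-/- and 3.54 to 4.07 in wild-type. Fat cell markers were higher in Nrf2-/-Keap1-/- than in wild-type esophagus for 3 of 8, where 0.315% of all genes were called higher.

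From P7 esophagus to adult epithelium, most members rose in wild-type mice. Of 10 members, 6 were higher, where 19.9% of all genes were called higher, and 2 were lower, where 23.0% of all genes were called lower. Txn1, at 0.52, 0.64 and 0.52 in adults against -0.87, -0.51 and -1.38 at P7, was 2.78-fold higher (limma adjusted p = 0.00153). Srxn1, at 0.22, 0.09 and 0.12, was 2.43-fold higher (adjusted p = 0.000204). Both genes were next highest in wild-type adults after the Keap1-/- esophagus.

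The peroxide-reducing enzymes divided in adults. Gpx1 was at 0.64, 0.87 and 0.82 against 0.05, 0.05 and -0.10 at P7, or 1.71-fold higher (limma adjusted p = 0.00211). Prdx6, at 1.05, 0.79 and 0.84, was 1.66-fold higher (adjusted p = 0.00761), and Prdx1, at -0.87, -0.78 and -0.71, was 1.46-fold higher (adjusted p = 0.00821). With each spot's own background neither passed (log2 0.46 for Prdx6, adjusted p = 0.0861, and 0.42 for Prdx1, adjusted p = 0.0671), and Prdx1 also lost its call with the processed signals (log2 0.32, adjusted p = 0.164) and with all 27 arrays in the fit (adjusted p = 0.075). In contrast, Gpx4 was at -2.47, -1.93 and -1.67 and was 1.98-fold lower (adjusted p = 0.0167), a log2 change of -0.99 that was -0.51 and lost its call with median scaling (adjusted p = 0.434). Gpx3 was at 2.27, 2.14 and 2.27 against 2.99, 2.66 and 3.24 and was 1.67-fold lower (adjusted p = 0.00973), but it turned to a change of 0.52 (adjusted p = 0.151) with the scanner software's own processed signals. Its Cy3 signal was dim, 47.6 to 564 over all arrays.

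Gpx2 was at 5.54, 5.77 and 5.78 in wild-type adults, 2.17-fold above P7 by the ratio (limma adjusted p = 0.04), and the call was lost without any 1 adult array (adjusted p = 0.0813 to 0.106). Its Cy5 intensity was 61386 to 144234 and its Cy3 intensity 4329 to 6372. In the Cy5 channel alone it rose by 4.35 (adjusted p = 0.000796), and Cy3 rose by 3.49, more than in all but 40 of 18011 genes. Txnrd1, at -0.31, -0.69 and -1.04, and Prdx2, at 0.47, 0.38 and 0.18, did not pass the test (log2 0.45 and 0.39, adjusted p = 0.0906 and 0.0878). Txnrd1 passed without wild-type adult replicate 3 (log2 0.63, adjusted p = 0.0227). That array came from another scan and software version than the wild-type P7 arrays and the other wild-type adult arrays. With scan as a block in limma, Txnrd1 passed (log2 0.63, adjusted p = 0.0225) and Gpx2 did not (log2 1.08, adjusted p = 0.098).

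In Nrf2-/- mice the P7 to adult comparison gave 6 members higher, where 27.1% of all genes were called higher, and 1 lower, where 28.0% of all genes were called lower. Gpx2 rose by 3.32 on the log2 scale (limma adjusted p = 1.65e-05), from 2.08, 1.93 and 1.04 at P7 to 5.0, 4.92 and 5.10. Its Cy3 signal rose as well, from 269 to 288 at P7 to 2080 to 2945 in adults, and in the Cy5 channel alone the change was 5.88 (adjusted p = 2.81e-06). Gpx1 rose 2.68-fold to 1.28, 1.28 and 1.52 (adjusted p = 3.48e-06), its highest level in any group. Prdx6 (log2 change 0.78), Prdx1 (0.65), Srxn1 (0.59) and Prdx2 (0.54) were also higher, and Gpx4 was 1.87-fold lower, although its change turned to 0.22 with median scaling (adjusted p = 0.613). The Nrf2-/- P7 arrays all came from 1 scan and the Nrf2-/- adult arrays from 2 others and another software version. With scan as a block, a fit that rests on the wild-type adult arrays, which fell on scans of both versions, Prdx1 changed by 0.27 (adjusted p = 0.552) and Prdx2 by 0.73 (adjusted p = 0.054), while Srxn1, Prdx6, Gpx1, Gpx2 and Gpx4 kept their calls. The call of Prdx1 was also lost without Nrf2-/- P7 replicate 1 (log2 0.50), Nrf2-/- P7 replicate 2 (0.61) or Nrf2-/- adult replicate 3 (0.39), with adjusted p of 0.0728 to 0.103. Txn1 did not pass (log2 0.43, adjusted p = 0.0893). It passed with median scaling (log2 1.60, adjusted p = 0.000219), scale normalization between arrays (0.63, 0.0182) and the Cy5 channel alone (0.72, 0.00461). Only the groups compared (0.0469) and replicate block (0.0485) also gave Txn1 a call. So did leaving out Nrf2-/- adult replicate 3 (log2 0.59, adjusted p = 0.032) or, through the shared spread alone, wild-type P7 replicate 2 (0.0433) or 3 (0.033). Gpx3 passed without Nrf2-/- P7 replicate 1 (log2 -0.58, adjusted p = 0.018), with scale normalization (-1.03, 0.00219) and in Cy5 alone (-1.11, 0.000664).

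**Figure D4:**
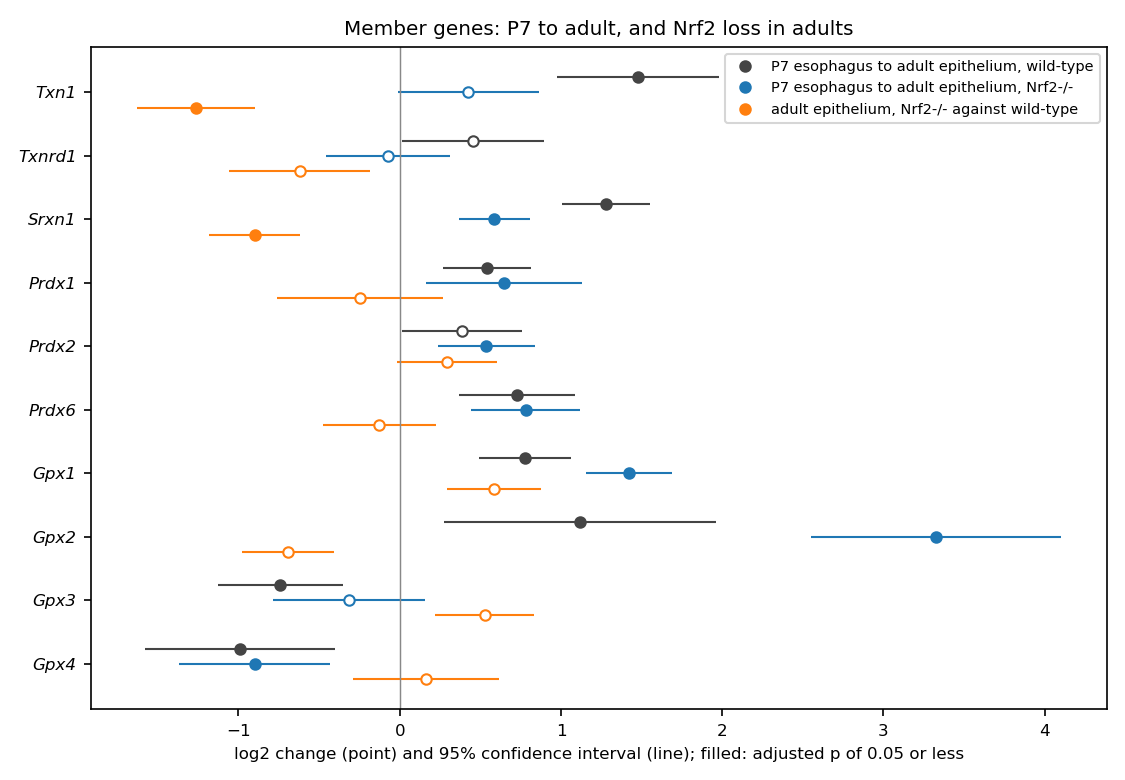
Log2 change (points) with its 95% confidence interval (lines) for each member from P7 esophagus to adult epithelium in wild-type and in Nrf2-/- mice, and in Nrf2-/- against wild-type adult epithelium, filled where the limma adjusted p was 0.05 or less. Gpx2 in Nrf2-/- mice has the largest change by the ratio, 3.32, between groups whose Cy3 signal for Gpx2 also differs, and Gpx4 lies below 0 in both genotypes between P7 and adult.

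Markers of the deeper layers fell between P7 and adult samples in wild-type mice, where 23.0% of all genes were called lower. Of these markers, 11 of 12 skeletal muscle, 7 of 7 enteric neuron and glia, 6 of 8 fibroblast and 5 of 8 smooth muscle markers were lower. The mean of the skeletal muscle list was 3.54 to 4.93 at P7 and 0.95 to 1.86 in wild-type adults, against 1.85 to 2.96 in Nrf2-/- adults. Squamous markers rose for 4 of 13, where 19.9% of all genes were called higher, and fell for 1. The part of these layers in the P7 to adult results was not tested.

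In adult epithelium, loss of Nrf2 lowered 2 of 10 members, where 0.233% of all genes were called lower, and raised none. Txn1 was at -0.58, -0.50 and -1.03 in Nrf2-/- adults against 0.52, 0.64 and 0.52 in wild-type, 2.40-fold lower (limma adjusted p = 0.0199). Srxn1 was at -0.84, -0.84 and -0.59 against 0.22, 0.09 and 0.12, 1.86-fold lower (adjusted p = 0.0305). For both genes every Nrf2-/- value lay under every wild-type value.

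These 2 calls rested on few arrays. Both were lost without wild-type adult replicate 1, without wild-type adult replicate 2, or without Nrf2-/- adult replicate 2, and both were lost with slide or scan as a block. Wild-type adult replicates 1 and 2 came from a scan and software version that no Nrf2-/- adult array shared. On the 1 scan that held both genotypes (1 wild-type and 2 Nrf2-/- arrays), Txn1 differed by -1.06 and Srxn1 by -0.95. Where arrays were scaled by their medians and not by loess, Txn1 differed by -0.50 (adjusted p = 0.237) and Srxn1 by -0.30 (adjusted p = 0.377).

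Gpx2 was at 5.0, 4.92 and 5.10 in Nrf2-/- adults and 5.54, 5.77 and 5.78 in wild-type, a difference of -0.69 by the ratio (limma adjusted p = 0.0728) and of -1.77 in the Cy5 channel alone (adjusted p = 0.00166). Its Cy3 intensity was 2080 to 2945 on the Nrf2-/- adult arrays. Txnrd1 was at -1.19, -1.45 and -1.26 against -0.31, -0.69 and -1.04 (log2 -0.62, adjusted p = 0.186). Gpx1 (0.58) and Gpx3 (0.53) were above wild-type without overlap, and neither passed the test (adjusted p = 0.109 and 0.14). The effect of Nrf2 loss in adults was also set against that at P7: 0 of 10 members passed in limma, where 0.0980% of all genes were called, with 4 members at an unadjusted p under 0.05; SAM was not run on this contrast. The difference of the 2 effects was -1.05 ± 0.28 for Txn1 (adjusted p = 0.22) and 2.21 ± 0.50 for Gpx2 (adjusted p = 0.173).

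Over the wild-type course from E11.5 to P7, 3 of 10 members changed in limma's F-test across the 4 time points, where 30.0% of all genes were called: Srxn1 (adjusted p = 0.00532), Gpx2 (0.013) and Prdx2 (0.0202). SAM called 0. Without the 2 embryo arrays at odds with their labels, 5 members were called.

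Srxn1 rose between E15.5 and P0, and as the P0 samples are labelled postnatal, the rise cannot be placed before or after birth. It was at -2.31, -1.46 and -2.32 at E11.5, at -2.30, -2.22 and -2.46 at E15.5, at -1.40, -1.36 and -1.64 at P0 and at -1.18, -1.03 and -1.22 at P7. From E15.5 to P0 it was the 1 member called, 1.82-fold higher (limma adjusted p = 0.0161), where 11.3% of all genes were called higher. The call was lost without P0 replicate 1 (log2 0.83, adjusted p = 0.0554) or P0 replicate 2 (log2 0.81, adjusted p = 0.0627). It was also lost with each spot's own background (log2 0.82, adjusted p = 0.0717), and held without the 2 embryo arrays at odds (log2 0.88, adjusted p = 0.0241).

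From E11.5 to P7, 2 members rose, where 16.8% of all genes were called higher, and 1 fell, where 13.3% of all genes were called lower. Gpx2 rose 2.99-fold (limma adjusted p = 0.00705), from 3.48, 2.75 and 2.77 to 5.02, 5.06 and 3.65, and Srxn1 rose 1.86-fold (adjusted p = 0.00971). Prdx2 fell 1.76-fold (adjusted p = 0.0111), from 1.12, 0.43 and 0.78 to 0.09, -0.32 and 0.11. All 3 calls held without the 2 embryo arrays at odds, with adjusted p values of 0.0161, 0.0248 and 0.0134. Prdx2 is known as an abundant protein of red cells. Red cell markers fell for 5 of 14 over the same interval, with a list mean of 1.66 to 3.07 at E11.5 and 1.25 to 1.79 at P7; without the 2 embryo arrays at odds, 4 of 12 fell and 3 rose. Their part in the fall of Prdx2 was not tested.

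Txnrd1 depended on the arrays at odds with their labels. It was at -0.42, 0.08 and -0.94 at E11.5 and at 0.23, -0.75 and -1.24 at E15.5. With all arrays limma called 0 members between these ages, where 0% of all genes were called, with 0 members at an unadjusted p under 0.05 and 0 by SAM. Without the 2 arrays, Txnrd1 was 0.82 lower on the log2 scale at E15.5 than at E11.5 (adjusted p = 0.0349) and 0.96 lower at P7 (adjusted p = 0.00409). From P0 to P7, 0 members were called in limma, where 2.44% of all genes were called, with 1 member at an unadjusted p under 0.05 and 0 by SAM. Gpx2, at 3.57, 3.98 and 3.66 at P0, did not pass (log2 0.84) and passed without P7 replicate 3 (log2 1.31, adjusted p = 0.0221).

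Srxn1, Prdx2 and Prdx6 had more than 1 probe each. The 3 Srxn1 probes correlated at 0.98 to 0.99 over the 27 arrays, but differed in the size of change over the time course. From E15.5 to P0 the brightest rose by 1.44 and the others by 0.56 and 0.59. From P0 to P7 the changes were 0.07 against 0.46 and 0.46, and from E11.5 to P7 1.28 against 0.76 and 0.63. Without the 2 embryo arrays at odds the E11.5 to P7 changes were 1.20 against 0.66 and 0.38. For Prdx2 the bright probe, spotted 10 times, correlated at 0.43 and 0.57 with the other two and fell by 0.40 from E11.5 to P7, against falls of 1.06 and 1.00. With the bright probe alone the fall did not pass the test (limma adjusted p = 0.0848). Without the 2 embryo arrays at odds the changes were -0.40, -1.06 and -0.99, and the bright probe again did not pass (adjusted p = 0.0845). The 2 bright Prdx6 probes correlated at 0.95, and the brightest rose by 0.81 over the same interval and passed (adjusted p = 0.0128), whereas the mean of all 4 probes differed by 0.40 (adjusted p = 0.056). Without the 2 embryo arrays at odds the brightest rose by 0.69 (adjusted p = 0.0292). The 2 dim probes were well above background in Cy5 on 20 and 21 of the 27 arrays.

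**Figure D5:**
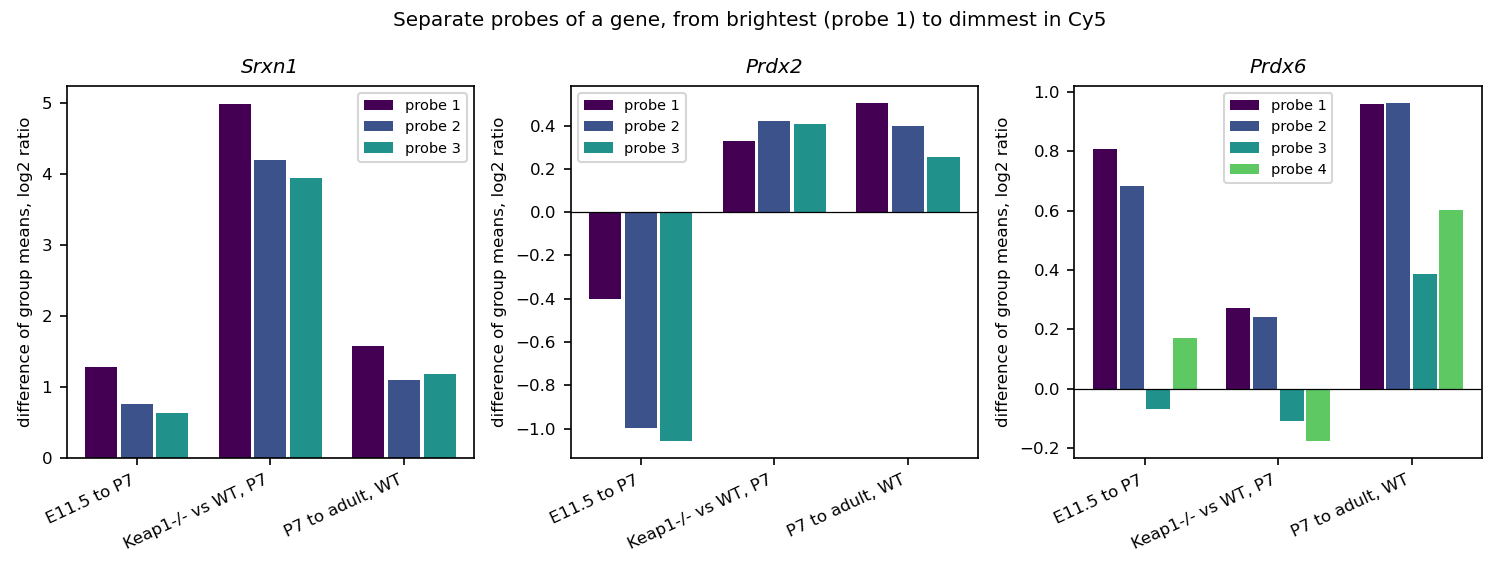
Difference of group means (log2 ratio) for each probe of Srxn1, Prdx2 and Prdx6 in 3 comparisons, with probes numbered from the brightest to the dimmest in Cy5. The Srxn1 probes agree in direction in all 3 comparisons, the Prdx2 probes fall by 0.40 to 1.06 from E11.5 to P7, and the 2 dim Prdx6 probes lie apart from the bright ones.

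As a description across the 27 arrays, which share the reference RNA and differ together in genotype, age and scan, the ratio of Srxn1 correlated with that of Prdx1 at 0.87, of Txn1 at 0.85 and of Txnrd1 at 0.70. Prdx6 and Gpx1 correlated at 0.83, and Prdx2 lay between -0.46 and 0.22 with every other member. Among 20732 genes, the named genes most like Srxn1 were Abcc4 (0.97) and Slc7a11 (0.97), those most like Txn1 were Nqo1 (0.96) and Gstp1 (0.95), and those most like Txnrd1 were Slc20a1 (0.91), Taf15 (0.90) and Lrp8 (0.89). Lrp8 was also among the 3 most like Prdx1 (0.91), after Slc5a4b (0.94) and Dnmt3l (0.92). Gpx2-ps1, a pseudogene of Gpx2, was the most like Gpx2 (0.87) and was 3.49 ± 0.26 higher in Keap1-/- than in wild-type esophagus (limma adjusted p = 6.51e-06). Its probe matched the Gpx2 probe at 19 of 55 aligned bases. By the same alignment, different probes of Srxn1, of Prdx2 or of Prdx6 matched one another at 18 to 24 bases. Whether the Gpx2 or the Gpx2-ps1 probe also binds transcripts of the other gene was not tested. For the rest, the gene most like Prdx6 was Pard3 (0.96), that most like Gpx3 was Abcc9 (0.82) and that most like Gpx4 was Ndufa2 (0.97).

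A list of 40 other genes of thiol and peroxide metabolism was examined, of which 39 were on the array. In Keap1-/- esophagus 9 of 37 tested were higher and 9 lower than in wild-type, where 15.4% of all genes were called higher and 17.9% lower. The 4 with the largest changes were Cat, catalase (2.96 ± 0.33, limma adjusted p = 0.000107), Gsr, which regenerates reduced glutathione (2.45 ± 0.16, 2.08e-06), Glrx, glutaredoxin (2.15 ± 0.45, 0.00431), and Gpx8, an enzyme of the endoplasmic reticulum (-1.30 ± 0.17, 0.000332). Cat was at 3.95, 3.31 and 3.17 against 0.57, 0.18 and 0.82, and Gsr at 2.70, 2.34 and 2.65 against 0.34, 0.11 and -0.12. Glrx was at 0.52, 2.36 and 2.53, with replicate 1 low as for Prdx1. The list's median change was 0.06, against -0.02 for all genes.

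From P7 to adult in wild-type mice, 5 of 36 of these genes were higher and 10 lower. Of all genes, 19.9% were called higher and 23.0% lower, so these counts are not far from those shares. Glrx rose by 3.31 ± 0.28 (limma adjusted p = 0.000139) and Prdx5, a mitochondrial and peroxisomal peroxiredoxin, by 2.10 ± 0.12 (3.16e-05). Gpx7, an enzyme of the endoplasmic reticulum, fell by 2.95 ± 0.11 (5.44e-06) and Gpx8 by 1.84 ± 0.19 (0.000342). Gsr, which was higher in Keap1-/- esophagus, was lower in adults (-1.06 ± 0.18, adjusted p = 0.0033). From E11.5 to P7, 8 of 37 were higher and 5 lower, where 16.8% of all genes were called higher and 13.3% lower. Without the 2 embryo arrays at odds, 13 of 37 were higher and 5 lower. In limma 0 of 36 passed in Nrf2-/- adults, where 0.499% of all genes were called. Of the 36, 7 had an unadjusted p under 0.05 and SAM called 0. In Nrf2-/- P7 esophagus 0 of 37 passed in limma, where 0.0157% of all genes were called. Of the 37, 2 had an unadjusted p under 0.05 and SAM called 0.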

How the data were processed

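Total RNA of esophagus (Cy5) and universal mouse reference RNA (Cy3) were hybridised to Agilent 4x44k arrays. The scanner files, deposited by the authors, hold mean spot intensity and local background per channel, extracted with Feature Extraction 10.5.1.1 on 20 arrays and 10.7.3.1 on 7 (per the file headers; the submitters' processing notes name version 9.1). The deposited series table holds log10 ratios, equal to the scanner files' log ratios averaged per probe. Ratios of Cy5 over Cy3 in log2 were computed here from the deposited intensities.

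Background was corrected with normexp (offset 50) and dye bias with loess within each array in limma 3.58.1 (R 4.3.3), with control spots at weight 0. Spots flagged as outliers were kept, since the software flagged 57.7% of member spots with the earlier version and 4.40% with the later one. Spots whose background exceeded 5 times the array's median were left out. Spots were averaged per probe and probes per gene name, and where a gene with several probes lacked one on an array, that probe was filled from additive probe and array effects. The test (lmFit and eBayes) took in genes with 2 or more values in each group and Cy5 signal well above background on 3 or more arrays. Calls were made at an adjusted p of 0.05 or less (Benjamini-Hochberg, all genes tested). SAM-type calls, the test of the study's methods, were an alternative. Their cut-off was set by the median number of false positives in permutations, so SAM and limma counts have unlike cut-offs. SAM called 1583 genes for Keap1-/- and 10 for Nrf2-/- at P7, where limma called 6352 and 3. Other alternatives were outlier flags, background correction, normalization, filters, the Cy5 channel alone, the brightest probe, arrays in the fit, slide, scan and replicate number as blocks, and leaving out arrays. The members, gene lists and tests were chosen with earlier results of these data known. Named genes were the 10 members, Nfe2l2, Keap1 and the reference target Nqo1, at most 4 of the largest called changes of the pathway list in the Keap1-/-, adult Nrf2-/- and P7 to adult comparisons, and the 3 genes most like each member by Pearson's r; gene symbols are those of the array design, and Gsr in adults was added after its value was seen. Of the 17 member probes, 16 carried an accession that RefSeq (GRCm38.p6) lists for the same gene.

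The labels call the 3 arrays of a group biological replicates. RNA came from individual esophagi, per the study's methods, so p-values measure the spread between samples of different mice, and the number of arrays limits the precision. On simulated data with 100 genes changed 2-fold and 100 changed 4-fold, 75% and 96% were called in the Keap1-/- comparison and 64% and 91% in the adult Nrf2-/- comparison, 51% and 95% from P7 to adult in wild-type, and 62% and 97% from P0 to P7. The simulated noise was normal and independent between genes and arrays, with no slide, scan or array effect. These shares therefore do not cover such effects in the real arrays. Far fewer genes were changed than the 6352 called in the real Keap1-/- comparison and the 7736 from P7 to adult in wild-type. The adjusted p depends on the share of genes changed, so the simulated shares do not carry over to those 2 comparisons.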

Additional observations from a re-analysis of the deposited data

Results flagged for a closer look

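The effect of Keap1 loss on 4 members differed between mice with and without Nrf2 by a test of that difference itself, the interaction of both genotypes in limma at P7. The log2 effect of Keap1 loss was larger with Nrf2 present by 4.46 for Srxn1, 2.08 for Txnrd1, 1.94 for Txn1 and 1.81 for Prdx1. Each of the 4 genes was higher on all 3 Keap1-/- arrays than on any wild-type or Nrf2-/-Keap1-/- array. All Keap1-/- arrays came from 1 slide, scan and software version that no other P7 array shared, so these cannot be told apart from the genotype.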

How the results depend on the processing

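Txn1, Txnrd1, Srxn1 and Prdx1 kept their calls in the Keap1-/- against wild-type comparison under every alternative that tested them (26 settings, and 27 for Srxn1), with ranges of 1.62 to 2.42, 1.88 to 2.63, 4.24 to 4.99 and 1.99 to 2.75 on the log2 scale. Counts of members called moved as follows, and the causes were not tested, except that Txn1, Txnrd1 and Prdx1 were not tested at P7 where outlier spots were left out. Leaving out outlier spots gave 1 across the 4 time points, 1 from E11.5 to P7, 4 from P7 to adult in wild-type, 2 in Nrf2-/-, 2 for Keap1-/-, 1 for Keap1-/- against Nrf2-/-Keap1-/-, 1 for the interaction and 1 for adult Nrf2-/-. SAM gave 0 across the time points, 0 from E11.5 to P7, 2 from P7 to adult in wild-type, 2 in Nrf2-/- and 1 for Nrf2-/- at P7. Median centring gave 2 from E15.5 to P0, 5 from E11.5 to P7, 8 for Keap1-/- and 0 for adult Nrf2-/-. Each spot's own background gave 0 from E15.5 to P0, 5 from P7 to adult in wild-type and 1 for Nrf2 loss in adults against P7. From E15.5 to P0 the Cy5 channel alone, the brightest probe, only the groups compared and the replicate block gave 2 each, and all 27 arrays gave 4. All 27 arrays gave 1 for Nrf2-/- at P7. For adult Nrf2-/- the processed signals, the series table, slide block, scan block and replicate block gave 0 each. Without both embryo arrays at odds, 5 were called across the time points and 1 from E11.5 to E15.5. The single-probe and gene-list values without these arrays were chosen after seeing the data.

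The replicate block is for numbers that did not pair the samples: same-numbered arrays of 2 groups correlated in their deviations at -0.447 to 0.640, with every r over 0.1 in 3 of 17 pairs of groups. Apart from the counts of 2 and 0 given for it, it moved no count of members by more than 1.5 times. Scan as a block could not be fitted among P7 genotypes or within the time course.

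Changes that reversed were Gpx3 from P7 to adult in wild-type (0.52 with processed signals and 0.52 with the series table), Txnrd1 (1.01) and Gpx4 (0.22) from P7 to adult in Nrf2-/- with median centring, and Prdx2 (-0.018) and Gpx1 (-0.49) in Keap1-/- in the Cy5 channel alone. Median centring moved the median of all genes by 0.38 in adult Nrf2-/-, 0.26 from P7 to adult in Nrf2-/- and 0.13 in Keap1-/-.

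Leaving out 1 array at a time gave 2 to 4 members across the time points, 0 to 0 from E11.5 to E15.5, 0 to 2 from E15.5 to P0, 0 to 1 from P0 to P7, 3 to 5 from E11.5 to P7, 7 to 8 from P7 to adult in wild-type, 6 to 8 in Nrf2-/-, 4 to 6 for Keap1-/-, 0 to 2 for adult Nrf2-/- and 0 to 1 for Nrf2 loss in adults against P7. Over all genes, the count called across the alternatives ran from 1583 to 8081 for Keap1-/- (6352 as reported), from 20 to 1665 for adult Nrf2-/- (90), from 2152 to 8667 from P7 to adult in wild-type (7736), from 662 to 7473 from E11.5 to P7 (5945), from 1407 to 8445 across the time points (5920), from 1056 to 5680 from E15.5 to P0 (3890), from 243 to 1106 from P0 to P7 (480), from 3706 to 11181 from P7 to adult in Nrf2-/- (10694), from 2 to 10 for Nrf2-/- at P7 (3), from 3 to 496 for Nrf2-/-Keap1-/- (82), from 1757 to 7460 for Keap1-/- against Nrf2-/-Keap1-/- (6355), from 0 to 14 for Nrf2-/-Keap1-/- against Nrf2-/- (0) and from 9 to 1115 for Nrf2 loss in adults against P7 (19). Dim reference signal limits Gpx3, which was well above background in Cy3 on 24 of 27 arrays.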
